A study of Bos taurus with 38 samples.

Results

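The 7 genes described here were followed in the Longissimus dorsi (LD) muscle of 38 newborn calves, chosen because their levels ran along the main axis of difference among these animals. GREB1, SCN3B and AMPD3 formed set 1, whose levels went up together. METTL11B, GADL1, KY and PAK1 formed set 2, whose levels went down where those of set 1 went up. The table of counts held 27607 genes, of which 12964 passed the filter on low counts, and all 7 members were among them. The choice of members used the levels in these same calves, so the shared direction within a set and the opposition between the sets are given as a description and not tested. Gene symbols came from the gene tables of the study, which list genes called in these calves, and the direction of a member in a Se-supplemented group is therefore no independent evidence.

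The libraries compared calves of Angus and Angus-cross cows given boluses of selenium (Se) yeast in 1 trimester of gestation (TR1, TR2 or TR3, numbered by trimester) with calves of control cows given none (CTR). Cows of every group, CTR included, had access to a mineral supplement with Na selenite. Biopsies were taken shortly after birth, after local anesthesia with lidocaine and epinephrine, and each library came from a different calf. CTR had 10 calves (4 females, 6 males, dams of 6 to 9 years), TR1 9 (2 females, 7 males, dams of 5 to 9 years), TR2 10 (3 females, 7 males, dams of 5 to 9 years) and TR3 9 (5 females, 4 males, dams of 5 to 8 years). The cows were bred by artificial insemination to a single sire, or to several bulls where that failed, and the labels do not name the sire of a calf.

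The members act in different parts of the muscle fibre. GREB1 is an estrogen-induced gene that binds the estrogen receptor, SCN3B is an auxiliary beta subunit of voltage-gated sodium channels, and AMPD3 is an AMP deaminase, which turns AMP into IMP and differs from AMPD1, the isoform typical of skeletal muscle. GADL1 decarboxylates acidic amino acids to make beta-alanine, the precursor of the muscle dipeptide carnosine. KY is a Z-disc protein and partner of filamin C that muscle needs for its maintenance, PAK1 is a kinase activated by the small GTPases RAC1 and CDC42 that takes part in glucose uptake, and METTL11B is a methyltransferase of protein N-termini.

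Total counts per calf ranged from 12921223 to 17471666 (median 14121365.5), TMM factors from 0.887 to 1.35, and the 10 most abundant genes took from 16.3% to 25.9% of the counts. The 5 skeletal muscle markers (ACTA1, CKM, MYLPF, MB and DES) together reached 30800 to 107000 CPM (counts scaled to the library total and TMM factor) in the calves, so that every library carried the defining genes of skeletal muscle. In bulk muscle, fewer cells of a type and less RNA per cell cannot be told apart. By the RefSeq annotation of a later assembly, AMPD3 overlaps RNF141, PAK1 overlaps a tRNA gene, and GADL1 and KY each overlap an uncharacterized locus, so that their counts may hold reads of these neighbours. GREB1, SCN3B and METTL11B overlap none.

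To place each calf, an axis score was computed as the mean z-score of log2 CPM over set 1 minus that over set 2. The 5 calves above a score of 2 were A2052 of TR1 at 5.62, A2023 of TR2 at 5.24, A2100 of TR2 at 3.97, A2033 of TR3 at 2.88 and A2099 of TR2 at 2.49. The next calf was A2040 of TR1 at 1.72, and the lowest was A2066 of TR2 at -2.08. TR2 thus gave 3 of these calves, TR1 and TR3 gave 1 each, and CTR gave 0.

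**Figure D1:**
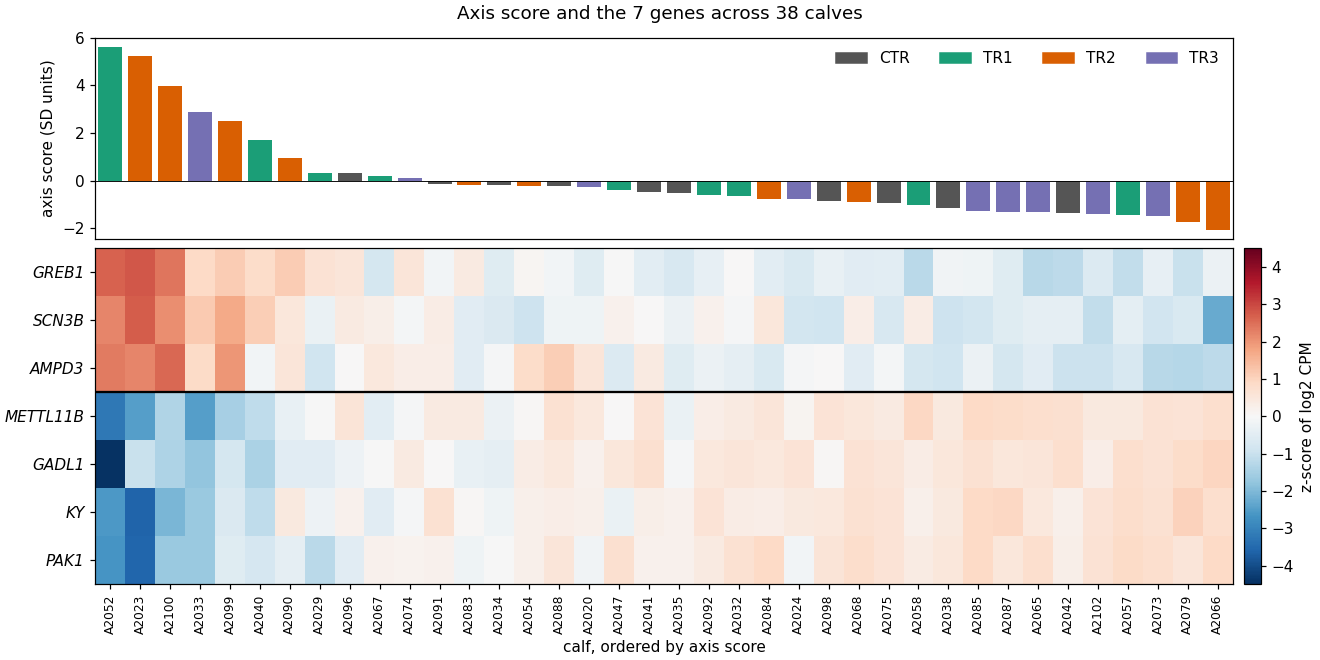
The upper panel plots the axis score (SD units) of each of 38 calves, from highest to lowest and coloured by group, and the lower panel the z-score of log2 CPM of each gene in the same calves, set 1 above the line and set 2 below it. The calves from A2052 (5.62) to A2099 (2.49) on the left are red for set 1 and blue for set 2. Most cells of the remaining calves are paler. Exceptions include SCN3B in A2066 (z-score -2.27) and GADL1 in A2040 (-1.41).

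CTR calves kept a narrow range of scores, from -1.36 to 0.31 with a median of -0.50 (SD 0.51, n = 10). Scores ran from -1.47 to 5.62 in TR1 (median -0.38, SD 2.16, n = 9) and from -2.08 to 5.24 in TR2 (median -0.20, SD 2.46, n = 10). TR3 reached from -1.50 to 2.88 (SD 1.40, n = 9) and had the lowest median, -1.27. All groups overlapped, and the medians of CTR, TR1 and TR2 lay within 1 SD of CTR. Set 1 and set 2 scores lay on opposite sides of their medians in 30 of 38 calves. A2023, A2052, A2099 and A2100 were among the 5 highest calves for all 3 genes of set 1, and A2023, A2033, A2052 and A2100 among the 5 lowest for all 4 genes of set 2.

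The axis score followed the main component of the whole transcriptome. The first principal component of the 12964 genes held 17.9% of the variance, against 10.0%, 7.83% and 4.77% for the next components, and its Pearson correlation with the axis score was 0.96 over 38 calves. GREB1 had the largest correlation with this component among the genes tested (r = 0.96), and the weakest member was AMPD3 (r = 0.82). Of the 12957 other genes, 1.72% were as strongly tied to it as AMPD3. SCN3B had an r of 0.84, METTL11B of -0.88, GADL1 of -0.83, and KY and PAK1 of -0.89 each. By ranks (Spearman's rho) the values were 0.87 (GREB1), 0.62 (SCN3B), 0.61 (AMPD3), -0.76 (METTL11B), -0.74 (GADL1), -0.68 (KY) and -0.70 (PAK1). The 5 calves above a score of 2 had the highest values of the component, from 23.38 (A2033) to 78.98 (A2052). The next calf was A2090 at 16.88. Within the 7 genes a single component carried 82.9% of the variance. These genes are part of the matrix from which the component was computed, and were chosen for lying on it.

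Among the genes of set 1, GREB1 ranged from 0.985 to 6.24 CPM in CTR (median 2.34), from 0.929 to 54.6 CPM in TR1 (median 3.46), from 1.22 to 63.8 CPM in TR2 (median 4.69) and from 0.907 to 9.04 CPM in TR3 (median 1.99). The groups overlapped at the low end, and the high values belonged to single calves: A2023 (63.8 CPM), A2052 (54.6 CPM) and A2100 (43.5 CPM). The median of CTR was exceeded in 6 of 9 calves (TR1), 7 of 10 (TR2) and 4 of 9 (TR3).

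SCN3B, the sodium channel subunit, ranged from 1.22 to 5.23 CPM in CTR (median 2.38), from 2.08 to 34.9 CPM in TR1 (median 4.26), from 0.196 to 60.5 CPM in TR2 (median 5.35) and from 0.996 to 12.2 CPM in TR3 (median 1.92). TR1 was the most uniform in direction, with 8 of 9 calves above the CTR median, while TR2 held both the highest calf of all (A2023) and the lowest (A2066). The value of A2066 rested on 3 counts, for which an exact Poisson interval of 95% runs from 0.619 to 8.77 counts and covers counting error only.

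AMPD3 ranged from 0.985 to 9.17 CPM in CTR (median 2.81), from 1.06 to 31.4 CPM in TR1 (median 1.89), from 0.684 to 39.8 CPM in TR2 (median 3.39) and from 0.708 to 7.09 CPM in TR3 (median 2.20). Here the median of TR1 lay below that of CTR, with only 2 of 9 calves above it, although A2052 of TR1 was the second highest calf of the 38. A2100 (39.8 CPM), A2023 (26.9 CPM) and A2099 (21.7 CPM), all of TR2, made up the rest of the high end.

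**Figure D2:**
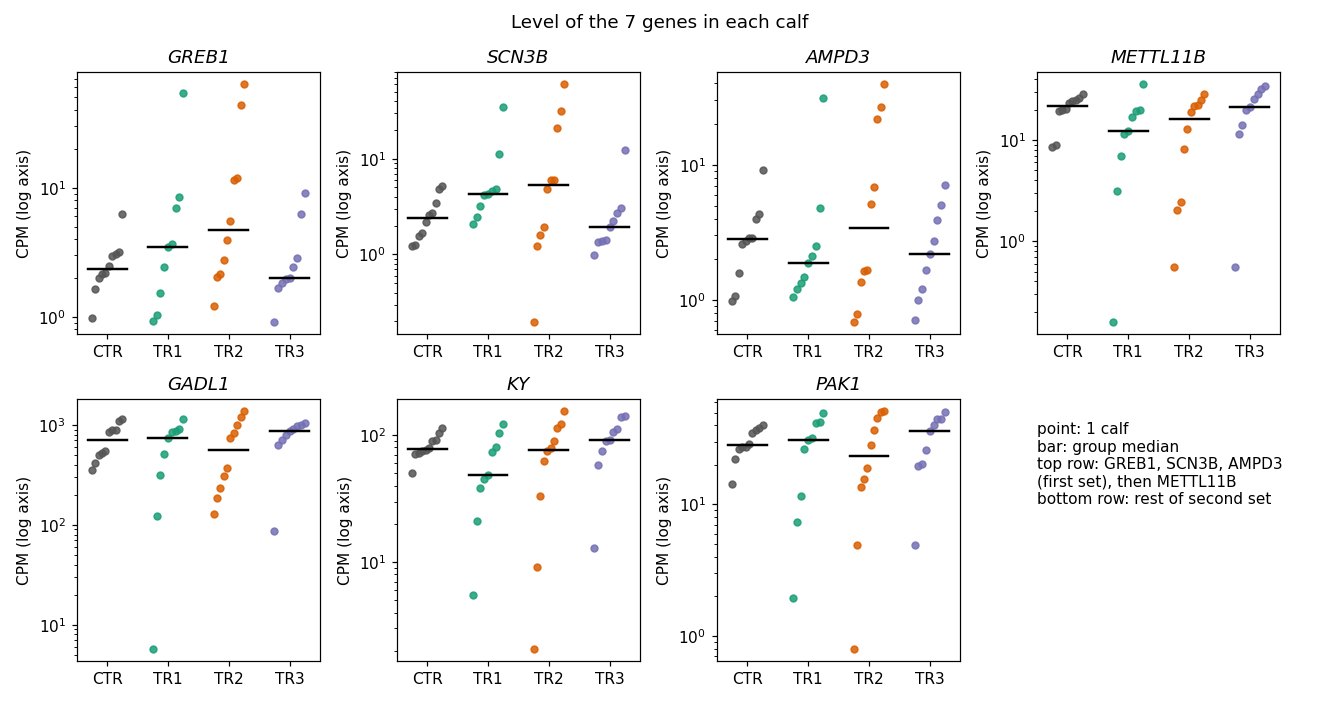
Each point is the level of a gene in 1 calf (CPM, log axis), by group, and the bar is the group median. For GREB1, SCN3B and AMPD3 single calves of TR1 and TR2 lie far above the bar, up to 63.8 CPM for GREB1. For SCN3B so does A2033 of TR3 (12.2 CPM). For METTL11B, GADL1, KY and PAK1 single calves of TR1, TR2 and TR3 lie far below the bar, down to 0.79 CPM for PAK1.

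For set 2 the outlying calves lay below the others. METTL11B ranged from 8.53 to 28.3 CPM in CTR (median 21.8), from 0.158 to 36.0 CPM in TR1 (median 12.4), from 0.553 to 28.6 CPM in TR2 (median 16) and from 0.55 to 34.6 CPM in TR3 (median 21.2). The lowest calves were A2052 (0.158 CPM, 3 counts), A2033 (0.55 CPM, 9 counts) and A2023 (0.553 CPM, 7 counts), each of a different group. In TR1, 8 of 9 calves lay below the CTR median, against 6 of 10 in TR2 and 5 of 9 in TR3.

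GADL1, the enzyme of beta-alanine synthesis, ranged from 351 to 1150 CPM in CTR (median 704), from 5.64 to 1140 CPM in TR1 (median 746), from 128 to 1380 CPM in TR2 (median 561) and from 86.4 to 1040 CPM in TR3 (median 875). A2052 stood alone at 5.64 CPM, followed by A2033 (86.4 CPM), A2040 (124 CPM) and A2100 (128 CPM). A2023, the lowest calf for KY and PAK1, was the fifth lowest here with 187 CPM. TR3 had 7 of 9 calves above the CTR median.

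KY ranged from 50.2 to 114 CPM in CTR (median 77.9), from 5.48 to 123 CPM in TR1 (median 48.4), from 2.05 to 155 CPM in TR2 (median 77.1) and from 12.9 to 141 CPM in TR3 (median 92.0). The lowest values were those of A2023 (2.05 CPM), A2052 (5.48 CPM), A2100 (9.17 CPM) and A2033 (12.9 CPM). The CTR calves varied least, and every CTR value lay between the extremes of each Se-supplemented group.

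PAK1 ranged from 14.2 to 39.9 CPM in CTR (median 28.1), from 1.95 to 49.2 CPM in TR1 (median 31.1), from 0.79 to 51.3 CPM in TR2 (median 23.4) and from 4.95 to 50.2 CPM in TR3 (median 36.1). A2023 (0.79 CPM, 10 counts), A2052 (1.95 CPM), A2033 and A2100 (4.95 CPM each) were again the lowest. The medians of the 4 groups differed by less than the range within any of them.

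Each member varied more among calves than nearly all other genes. The highest calf exceeded the lowest by 309-fold for SCN3B, 245-fold for GADL1, 228-fold for METTL11B, 75.5-fold for KY, 70.4-fold for GREB1, 64.9-fold for PAK1 and 58.2-fold for AMPD3. The SD of log2 CPM lay between 1.29 (PAK1) and 1.67 (METTL11B), larger than that of 98.8% to 99.6% of the genes tested, whose median SD was 0.37. The treatment group held between 5.88% (PAK1) and 14.9% (GREB1) of a member's variance, and the rest lay between calves of the same group. These shares are not adjusted for the number of groups, and any split of calves into groups takes up some variance without an effect. The SD within groups was 1.31 for PAK1, 1.46 for AMPD3 and 1.48 for GADL1. Over all calves the SD of these genes was no larger, at 1.29, 1.45 and 1.47. Within CTR the SD was 0.33 for KY, 0.45 for PAK1 and at most 0.91 (AMPD3). By trimester it was 1.22 to 2.43, 1.22 to 2.29 and 0.96 to 1.75. The difference in spread between groups was not tested.

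Pairs within a set were tightly linked over the 38 calves. In set 1 the 3 pairs had a Pearson's r of 0.75 (GREB1 and SCN3B), 0.76 (SCN3B and AMPD3) and 0.77 (GREB1 and AMPD3). In set 2 the 6 pairs lay between 0.80 (GADL1 and KY) and 0.92 (KY and PAK1), with a median of 0.88. The 12 pairs across the sets were all negative, from -0.67 (AMPD3 and GADL1) to -0.86 (GREB1 and PAK1), with a median of -0.78. Spearman's rho, which reads ranks only, was smaller in size, with medians of 0.55 in set 1, 0.74 in set 2 and -0.58 across the sets. The points are calves whose libraries were normalized together, and no p is given because the members were chosen for this pattern.

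**Figure D3:**
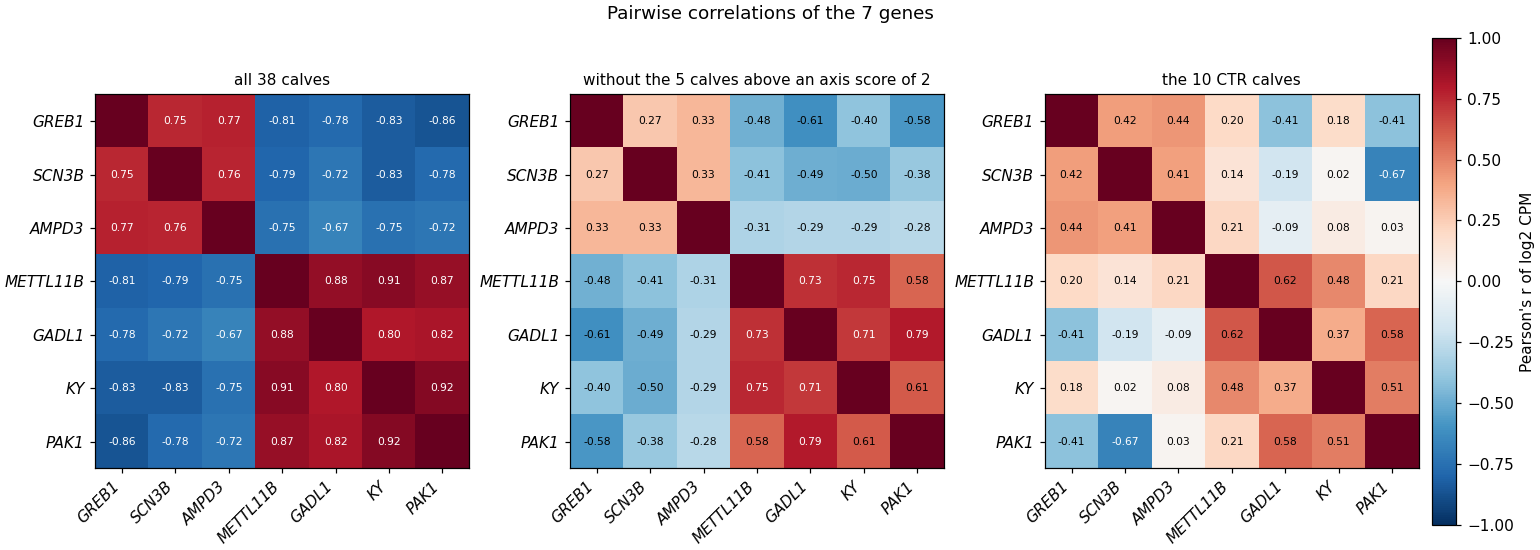
Each cell holds Pearson's r of log2 CPM for 1 pair of genes, over all 38 calves (left), without the 5 calves above an axis score of 2 (middle) and over the 10 CTR calves (right). Red blocks within the sets and a blue block between them stand out on the left, fade in the middle (median -0.41 between sets) and are mixed in sign between sets in CTR (median 0.03).

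The correlations were also computed without the calves at the ends of the axis. The score is built from these 7 genes, so leaving out its extreme calves narrows the range of each gene and lowers the correlations by construction. Without A2052 and A2023, the calves farthest from the median score, the medians were 0.65 in set 1, 0.86 in set 2 and -0.67 across the sets. Without all 5 calves above a score of 2, a choice made after seeing the data, they were 0.33, 0.72 and -0.41. All 12 pairs across the sets stayed negative (-0.28 to -0.61), and GREB1 and GADL1 were the most opposed (r = -0.61). Set 2 held together best, with GADL1 and PAK1 at 0.79, METTL11B and KY at 0.75, and METTL11B and GADL1 at 0.73.

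Within groups, the pairs across the sets were opposed in each Se-supplemented group and mixed in CTR. Median r across the sets was -0.89 for TR1, -0.88 for TR2 and -0.75 for TR3, and all 12 pairs were negative in each. In CTR it was 0.03, with 5 of 12 pairs negative, from -0.67 (SCN3B and PAK1) to 0.21 (AMPD3 and METTL11B). Medians within set 1 were 0.42 for CTR, then 0.78, 0.82 and 0.70 for TR1 to TR3, and within set 2 they were 0.50, 0.95, 0.89 and 0.94. CTR had no calf above a score of 2, and whether its correlations differ from those of the other groups was not tested. In TR1 (n = 9) A2052 had a score of 5.62 and the next calf 1.72. In TR3 (n = 9) A2033 had a score of 2.88 and the next calf 0.12. How far the correlations within these groups rest on such single calves was not tested. Adjusting each gene for dam age, sex and group left medians of 0.77, 0.87 and -0.77.

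Some library measures and sums of cell type markers moved with the score, and others did not. The TMM factor had an r of 0.53 with it (rho 0.53), the share of the 10 most abundant genes an r of -0.72 (rho -0.71), and total counts an r of 0.02. The summed skeletal muscle markers had an r of -0.61 (rho -0.64), with 3 of 5 genes at -0.5 or below and DES at 0.5 or above. For connective tissue r was -0.59 (5 of 7 genes at -0.5 or below). Leukocyte markers had an r of -0.68 (2 of 6 genes), satellite cell markers of -0.56 (2 of 3 genes), endothelium and smooth muscle markers of 0.45, and blood, nerve and adipocyte markers of -0.35, -0.05 and 0.01. Of all genes other than the members, 13.1% were at -0.5 or below and 11.5% at 0.5 or above. Without the 5 calves above a score of 2, r was 0.67 for the TMM factor, -0.63 for the 10 most abundant genes and -0.23 for total counts. For the markers it was -0.67 (skeletal muscle), 0.05 (connective tissue), -0.37 (leukocyte), -0.48 (satellite cell), 0.35 (endothelium and smooth muscle), -0.30 (blood), 0.14 (nerve) and 0.35 (adipocyte). No marker was at 0 in every calf. The summed connective tissue markers were at 445 to 1190 CPM in CTR and, by trimester, at 240 to 1240, 308 to 625 and 380 to 1080 CPM, and the leukocyte markers at 73.1 to 340, 49.9 to 238, 24.4 to 245 and 76.1 to 254 CPM. Their part in the result was not tested. With library size in place of TMM, the median correlations were 0.78 in set 1, 0.87 in set 2 and -0.79 across the sets.

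The comparison of each Se-supplemented group with CTR asked whether supplementation in a given trimester shifted these genes. With edgeR's quasi-likelihood test, adjusted for dam age and sex, none of the 7 members reached a Benjamini-Hochberg adjusted p of 0.05 in any of the 3 comparisons, and neither did another of the 12964 genes (0% in each). DESeq2 called 1 gene in TR2 (0.00772%), which was no member, and 0 in TR1 and TR3.

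In TR2, the genes of set 1 had the largest fold changes. The log2 fold change was 2.48 for GREB1 (standard error 0.66, unadjusted p = 0.000642, edgeR adjusted p = 0.497), 2.16 for SCN3B (standard error 0.67, p = 0.00262, adjusted p = 0.497) and 1.87 for AMPD3 (standard error 0.70, p = 0.0108, adjusted p = 0.545). At an unadjusted p under 0.05, 3 of 7 members were higher and 0 lower, where 5.03% of all genes tested were higher (652 genes) and 8.34% passed in either direction (1081 genes, 1175 with DESeq2). Those 3 are the genes of set 1, chosen for moving together in these calves, so this count is no independent evidence. Under DESeq2 the adjusted p was 0.152 for GREB1, 0.261 for SCN3B and 0.353 for AMPD3. In set 2 the fold changes were -0.54 (METTL11B), -0.19 (GADL1), -0.15 (KY) and -0.15 (PAK1), with standard errors of 0.44 to 0.52 and an adjusted p of at least 0.773. Leaving out 1 calf lowered the values of set 1, to 1.71 for GREB1 and 1.24 for AMPD3 without A2100 and to 1.62 for SCN3B without A2023. With dam age as a factor, SCN3B had a value of 1.23 and AMPD3 of 1.01.

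**Figure D4:**
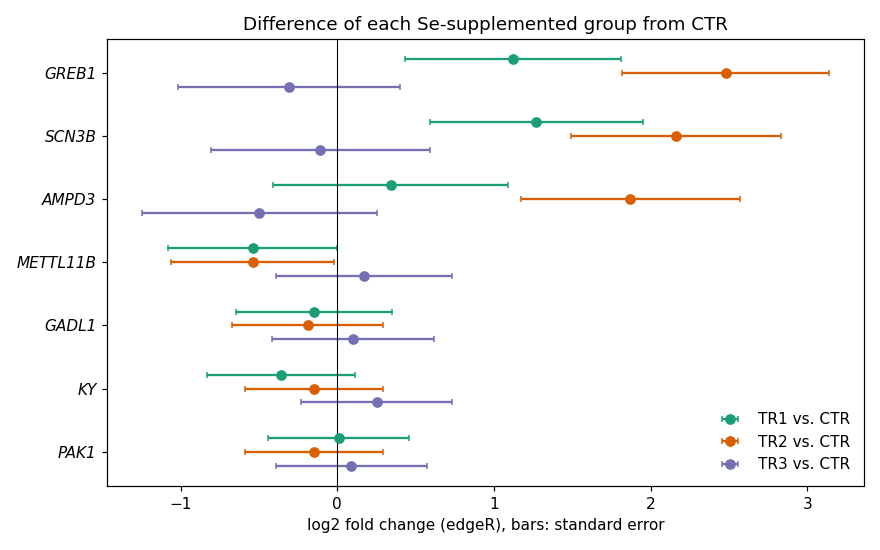
Points are the log2 fold change of TR1, TR2 and TR3 against CTR from edgeR, for each gene, and bars are the standard error. The 3 TR2 points of GREB1 (2.48), SCN3B (2.16) and AMPD3 (1.87) lie farthest from 0, and the bars of set 2 reach or nearly reach 0.

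In TR1, 0 of 7 members passed an unadjusted p of 0.05, where 2.55% of the genes tested did (331 genes, 367 with DESeq2). SCN3B had a log2 fold change of 1.27 (standard error 0.68) and GREB1 of 1.12 (standard error 0.69), both with an edgeR adjusted p of 1. With no covariates, GREB1 had a value of 1.79. Without A2052 these values were 0.42 and 0.05, and AMPD3 went from 0.34 to -0.98. The remaining values were -0.54 for METTL11B, -0.36 for KY, -0.15 for GADL1 and 0.01 for PAK1. In TR3, 0 of 7 members passed either, against 1.35% of genes (175 genes, 197 with DESeq2), and fold changes lay between -0.50 (AMPD3) and 0.25 (KY). Without A2033, the only TR3 calf above a score of 2, GREB1 went from -0.31 to -0.89 and SCN3B from -0.11 to -0.85.

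The trimesters were also compared with each other. TR3 lay below TR2 by a log2 fold change of -2.78 for GREB1 (standard error 0.73, unadjusted p = 0.000508), -2.37 for AMPD3 (standard error 0.79, p = 0.00497) and -2.27 for SCN3B (standard error 0.70, p = 0.00258), each with an edgeR adjusted p of 0.463. Fitted on these 2 groups alone, the values were -1.78 for GREB1 and -0.90 for AMPD3, and with dam age as a factor that of SCN3B was -1.45. At an unadjusted p under 0.05, 3 of 7 members were lower, against 6.51% of genes lower (844 genes) and 9.46% in either direction. Between TR3 and TR1, GREB1 (-1.42) and SCN3B (-1.38) were lower at an unadjusted p of 0.0384 and 0.0463, 2 of 7 members against 4.08% of genes lower and 5.85% in either direction, and their edgeR adjusted p was 0.850 and 0.851. Without A2052 the difference of GREB1 was 0.01. When all 4 groups were tested together, 3 of 7 members passed the unadjusted threshold against 6.09% of genes, with an edgeR adjusted p of 0.817 for each gene of set 1. No gene was called in these comparisons by edgeR, and none by DESeq2 in the pairs of trimesters, while 1227 (edgeR) and 1327 (DESeq2) passed an unadjusted p of 0.05 between TR3 and TR2, 758 and 779 between TR3 and TR1, and 790 (edgeR) in the test for any difference. The comparisons share calves, the controls among them. The members that passed were genes of set 1, chosen for moving together in these calves, so their counts are no independent evidence.

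Sex and dam age were not used to choose the members. No member passed the test between female and male calves, with log2 fold changes (female over male) from -0.20 (SCN3B) to 0.42 (PAK1), standard errors of 0.35 to 0.53 and an edgeR adjusted p of at least 0.899, while 0.0309% of genes (4) were called. At an unadjusted p under 0.05 the count was 0 of 7 members, against 6.61% of genes. The median axis score was -0.80 in 14 females and -0.25 in 24 males. With dam age, GREB1 had a slope of -0.52 log2 units per year (standard error 0.20, unadjusted p = 0.0123, edgeR adjusted p = 0.993), 1 of 7 members against 3.36% of genes (436 genes, 471 with DESeq2). The other slopes lay between -0.29 (SCN3B) and 0.23 (METTL11B), and no gene was called by edgeR or DESeq2. A2052 and A2023 both had dams of 5 years. The slope of GREB1 was -0.29 without A2052, and that of SCN3B was -0.05 without A2023.

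Genes other than the members also followed the axis score. Among 2587 genes with a symbol and a mean of at least 1 CPM, the highest correlations with the axis score over 38 calves included those of SLC12A4, a potassium chloride cotransporter (r = 0.90), HNRNPA1, an RNA-binding protein of splicing (0.89), OSER1 (0.88), SDC4, a heparan sulfate proteoglycan (0.87), and PNPLA2, the lipase that starts triglyceride breakdown (0.85). At the low end were FSD2, also called minispryn (-0.94), EML1, a microtubule-binding protein (-0.93), SMRP1 (-0.93), DHRS7C, an enzyme of the sarcoplasmic reticulum (-0.92), CD59, an inhibitor of complement (-0.92), and STEAP3, a metalloreductase (-0.91). PNPLA2 ran from 57.4 to 679 CPM (median 84.2) and peaked in A2052, and its rho was only 0.50. FSD2 ran from 34.5 to 186 CPM (median 143), was lowest in A2052, and had a rho of -0.80. Without the 5 calves above a score of 2, r was 0.33 for PNPLA2 and -0.69 for FSD2.

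By the same measure, each member had its own closest genes. GADL1 went with LDHA, lactate dehydrogenase of glycolytic muscle (r = 0.95), and with PGAM2, the muscle phosphoglycerate mutase (0.94), and METTL11B went with GPI, another glycolytic enzyme (0.90), and SAMD11 (0.93). In A2052 LDHA was at 741 CPM against a median of 5930, and PGAM2 at 181 against 1920. KY went with SMRP1 and FSD2 (0.92 each), and PAK1 with STEAP3 (0.91) and FSD2 (0.90). For set 1 the highest were HNRNPA1 (0.90) and ATP6V1C1, a proton pump subunit (0.87), for GREB1, ATOH8, a transcription factor (0.85), and RAPGEF2 (0.82) for SCN3B, and ALPK3, an alpha-kinase of muscle (0.84), and SLC12A4 (0.82) for AMPD3. The most opposed genes were INHA (-0.92) and CHN1 (-0.91) for GREB1, ZNF511 (-0.88) and DKK2 (-0.83) for SCN3B, and SLC25A11 (-0.83) and ANGPT1 (-0.82) for AMPD3. In set 2 they included SLC12A4 (-0.87) and ZNF579 (-0.86) for METTL11B, EIF4E3 (-0.89) and THOP1 (-0.87) for GADL1, SDC4 (-0.85) for KY, and HNRNPA1 (-0.84) for PAK1.

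Lists of genes around the members' roles were set beside the axis score. Of the 12957 other genes, 11.5% had an r of at least 0.5 with the score and 13.1% an r of -0.5 or below, and the median over all was 0.01. Against CTR, no gene of any list passed an adjusted p of 0.05 (edgeR). The lists hold only genes with a symbol in the study's tables, which list genes called in these calves. The shares of all genes are therefore not a like background for the lists. An excess over such a share is no independent evidence. Without the 5 calves above a score of 2, 2.01% of all genes were at 0.5 or above and 3.87% at -0.5 or below.

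Around GADL1, the carnosine list had 2 of 3 genes at -0.5 or below: CARNS1, which joins beta-alanine and histidine to carnosine, and CARNMT1, which methylates it, both at -0.84. CARNS1 had a median of 125 CPM and was lowest in A2052 with 4.42 CPM. Without the 5 calves above a score of 2 the values were -0.67 and -0.81. The third gene, SLC36A1, an amino acid transporter, had an r of -0.09. Around AMPD3, the purine list had 1 of 8 genes at 0.5 or above, IMPDH2, which leads from IMP to guanine nucleotides (0.76), and 2 at -0.5 or below, of which adenylate kinase AK1 was the lowest (-0.80). AMPD1, the muscle AMP deaminase and named here after its value was seen, was the other (-0.72), with 38.6 CPM in A2023 against a median of 306 CPM. The r of IMPDH2 was 0.25 without the 5 calves, that of AK1 -0.88 and that of AMPD1 -0.44.

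Around KY, the Z-disc list was split, with 8 of 21 genes at 0.5 or above and 5 at -0.5 or below (median 0.09). XIRP1, an actin-binding protein, was the highest (0.76, from 39.0 to 1290 CPM, peak in A2100) and MYOZ3, a calcineurin-binding Z-disc protein, the lowest (-0.88, from 25.6 to 391 CPM). FLNC, filamin C, named after its value was seen, had an r of 0.62 while KY itself went the other way. When these 5 calves were left out, 5 of the 21 genes were at 0.5 or above and 3 at -0.5 or below, with XIRP1 at 0.18, MYOZ3 at -0.65 and FLNC at 0.35. Around PAK1, 4 of 9 genes reached 0.5, led by the RAC1 effector BAIAP2 (0.80), and 1 was at -0.5 or below, the glucose transporter SLC2A12 (-0.83). The counts were 1 and 0 without the 5 calves, with BAIAP2 at 0.44 and SLC2A12 at -0.31. Around METTL11B, 0 of 6 methyltransferases reached 0.5 and 3 were at -0.5 or below, with METTL7B at 0.43 and SMYD1, a lysine methyltransferase of striated muscle, at -0.89. With the 5 calves left out, 2 were at -0.5 or below, with SMYD1 at -0.54.

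Around SCN3B, the membrane excitability list had 0 of 6 genes at 0.5 or above and 3 at -0.5 or below (median -0.48). The potassium channel KCNN3 was the highest (r = -0.15, rho = -0.07). In the synapse and denervation list 0 of 10 genes reached 0.5 and 3 were at -0.5 or below, with RYR3, a calcium release channel, at 0.45 and SLN, an inhibitor of the calcium pump, at -0.79. Around GREB1, 0 of 11 estrogen-linked genes reached 0.5 and 3 were at -0.5 or below, with the steroid dehydrogenase HSD17B11 at 0.48 and the binding protein IGFBP5 at -0.82. The fibre type list had 0 of 13 and 4 of 13 (median -0.28), with CA3 at 0.07 and MYBPC2, a fast fibre protein, at -0.79. MYH1, the fast IIx myosin and at neither end of the list, was at -0.47 (rho -0.64). Its r was -0.60 without the 5 calves above a score of 2. With these calves left out, 1 excitability gene, 1 synapse gene, 2 estrogen-linked genes and 4 fibre type genes were at -0.5 or below, and 0, 1, 1 and 0 at 0.5 or above. The values were then -0.63 for SLN, -0.60 for IGFBP5 and -0.80 for MYBPC2.

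The muscle wasting and glucocorticoid list stood farthest to the positive side, with 20 of 28 genes at 0.5 or above and 0 at -0.5 or below (median 0.57). CEBPD, a transcription factor induced by glucocorticoids, was the highest (0.80), with a median of 21.1 CPM and 688 CPM in A2052, and NR3C1, the glucocorticoid receptor, the lowest (-0.25). NAMPT of the same list had an r of 0.69 and a rho of 0.20, and its r was -0.11 without the 5 calves above a score of 2. Without the 5 calves above a score of 2, 2 of the 28 genes were at 0.5 or above, with a list median of 0.21 and CEBPD at 0.42, beside the 2.01% of all genes. In TR2, 9 of the 28 genes were higher at an unadjusted p under 0.05 and 0 lower, beside the 5.03% of all genes given above. The list was drawn from genes called in these calves, so this count is no independent evidence. TR2 also held 3 of the 5 calves above a score of 2.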

How the data were processed

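Stranded poly-A libraries from LD muscle biopsies of 38 calves were sequenced by the authors, who trimmed and filtered the reads, mapped them to ARS-UCD1.2 with STAR 2.7.3a and counted them by Ensembl gene. The deposited table holds the resulting raw counts, not normalized. The strand setting of the counts is not given in the sources used here. Groups, sex and dam age came from the sample labels. Counts were filtered with filterByExpr (sex and group), scaled with TMM and tested in edgeR 4.0.16 (R 4.3.3) by the quasi-likelihood F-test on all 38 calves, with dam age (linear), sex and group, and Benjamini-Hochberg adjustment over 12964 genes at 0.05. The standard error of a fold change was taken from its value and F. Correlations used log2 CPM with a prior count of 2 and carry no test. The code was tested on simulated data. Depth was 12921223 counts or more per calf. The lowest counts in a calf were 3 for SCN3B and METTL11B, 9 for AMPD3, 10 for PAK1 and 13 for GREB1. Counts are not given beside every low value.

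The members and all gene lists were chosen with earlier results of these data known. Named beside the members are, for each, the 2 genes with the highest and the 2 with the lowest r, for the axis score the 6 highest and 6 lowest, and in each list the highest and the lowest. Of the lists, AMPD1, FLNC, MYH1 and NAMPT were named in addition to this rule. These genes have a symbol in the study's tables and, in the first 2 cases, a mean of at least 1 CPM. Alternatives were DESeq2 1.42.0, its size factors and its variance-stabilized (VST) values, library size, no covariates, dam age as a factor, no filter, only the compared groups, a prior count of 5, Spearman's rho, residuals, single groups, and calves left out. Leaving out the 5 calves above a score of 2 was chosen after seeing the data. No library was a copy of another of the same group (smallest chi-square per degree of freedom between calves of a group 16.7). This value does not cover pairs of calves from different groups. Sequences of the members were not analysed here, and some genes that this rule picks are not reported here.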

Additional observations from a re-analysis of the deposited data

Results flagged for a closer look

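In 10 of 32 tests of a group of 9 or 10 calves (each member's CPM on the linear scale and the axis score, per group), the highest or lowest calf stood apart from the nearest by more than Dixon's critical value. The usual rate of about 1 group in 20 by chance does not apply here: the members were chosen for spreading these calves, the score is built from them, the tests share calves, and CPM is skewed. A2052 of TR1 accounted for 4 of them. It had 54.6 CPM of GREB1 (next calf 8.50), 34.9 CPM of SCN3B (next 11.2), 31.4 CPM of AMPD3 (next 4.79) and an axis score of 5.62 (next 1.72). A2033 of TR3 accounted for 3, with 12.2 CPM of SCN3B (next 3.08), 86.4 CPM of GADL1 (next 627) and an axis score of 2.88 (next 0.12). A2023 of TR2 had 60.5 CPM of SCN3B (next 31.2). In CTR, A2096 had 6.24 CPM of GREB1 (next 3.17) and A2088 had 9.17 CPM of AMPD3 (next 4.33). The CTR calves were set apart for 1 gene each.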

How the results depend on the processing

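Fold changes of the members kept their direction in 293 of 308 values, though not always their size, over the alternatives that kept all calves of the groups compared, and none passed an adjusted p of 0.05 (smallest 0.152). With dam age as a factor, SCN3B (2.16) and AMPD3 (1.87) in TR2 were 1.23 and 1.01, and SCN3B in TR3 vs. TR2 (-2.27) was -1.45. With only the 2 groups compared, GREB1 (-2.78) and AMPD3 (-2.37) in TR3 vs. TR2 were -1.78 and -0.90. With no covariates, GREB1 in TR1 (1.12) was 1.79. DESeq2 called 1 gene in TR2. Without the filter on low counts, edgeR called 2 genes in TR3, 13 for any difference, 11 in TR3 vs. TR1, 4 in TR3 vs. TR2, 11 for sex and 3 for dam age. The direction turned for 15 log2 fold changes, of at most 0.71 in size before the change (METTL11B in TR3 vs. TR2), and the cause was not tested. Without covariates these were PAK1 in TR1 (-0.13) and GREB1 (0.27) and SCN3B (0.19) in TR3. With dam age as a factor they were AMPD3 in TR1 (-0.19) and GREB1 (-0.07) and AMPD3 (-0.13) for sex. With only the 2 groups compared they were PAK1 in TR1 (-0.05), GREB1 (0.04), SCN3B (0.31), METTL11B (-0.11) and GADL1 (-0.09) in TR3, and METTL11B (-0.07), GADL1 (-0.24), KY (-0.24) and PAK1 (-0.23) in TR3 vs. TR2.

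Median correlations in set 1, in set 2 and across the sets were 0.55, 0.74 and -0.58 as Spearman's rho. They were 0.42, 0.50 and 0.03 within CTR, 0.95 (set 2) and -0.89 (across) within TR1, -0.88 (across) within TR2 and 0.94 (set 2) within TR3. Without the 2 calves farthest from the median score they were 0.65 (set 1) and -0.67 (across), and without the 5 calves above a score of 2 they were 0.33, 0.72 and -0.41 (rho 0.32, 0.60 and -0.37). Pairs that turned positive within CTR were GREB1 with METTL11B (0.20) and KY (0.18), SCN3B with METTL11B (0.14) and KY (0.02), and AMPD3 with METTL11B (0.21), KY (0.08) and PAK1 (0.03). On VST values the first component held 21.3% of the variance.

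Leaving out 1 calf at a time moved the calls between 0 and 1 in TR1 (1 without A2075 or A2096), 0 and 1 in TR2 (1 without A2068), 4 and 8 for sex (8 without A2099, 7 without A2067), and 0 and 1 for dam age (1 without A2075, A2096, A2068, A2033 or A2074). Log2 fold changes that turned sign ran from -0.98 to 0.69 for AMPD3, -0.34 to 0.05 for GADL1 and -0.17 to 0.19 for PAK1 in TR1, and from -0.85 to 0.12 for SCN3B and -0.05 to 0.27 for PAK1 in TR3. In TR3 vs. TR1 they ran from -1.96 to 0.01 for GREB1, -1.19 to 0.77 for AMPD3, -0.07 to 0.47 for GADL1 and -0.21 to 0.29 for PAK1. For sex they ran from -0.74 to 0.52 for GREB1, -0.91 to 0.19 for SCN3B and -0.86 to 0.36 for AMPD3, and for dam age from -0.01 to 0.13 for GADL1. The turns of AMPD3 and GADL1 in TR1, of GREB1, AMPD3 and GADL1 in TR3 vs. TR1, and of GREB1 and AMPD3 for sex came without A2052. Median correlations stayed within 0.72 to 0.78, 0.85 to 0.90 and -0.79 to -0.74. No paired analysis was made, because each library came from a different calf and the groups were not paired. The paper assigned cows to groups in randomized complete blocks, and the labels do not give the block of a calf. Depth limits the lowest values, down to 3 counts for SCN3B in A2066 and METTL11B in A2052.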
